A study of Homo sapiens with 10 samples.

Results

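The zinc finger genes described here were the rows of the expression table whose symbol is ZNF followed by a number and whose mean over the 10 samples was at least 5 FPKM. There were 172 such genes among 485 ZNF rows of any level and 23284 rows in the table. FPKM, fragments relative to transcript length and to the mapped reads of the library, is a level corrected for transcript length and library size, so levels can be compared between genes. The genes were chosen by their mean level, which is therefore no finding. Just inside the threshold were ZNF559 at a mean of 5.02 FPKM, ZNF260 at 5.04 and ZNF786 at 5.04, and just outside it were ZNF48 at 4.98, ZNF335 at 4.94 and ZNF485 at 4.82. All 172 genes passed the filter applied before testing (a mean of at least 0.5 FPKM), and none was listed at 0 in any sample.

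The samples were cultures of K562, an established human chronic myeloid leukemia cell line, kept for 48 h with vehicle (DMSO), with CBP30 at 2 or 5 µM, or with I-CBP112 at 2 or 5 µM. Both compounds occupy the bromodomains of the acetyltransferases CREBBP and EP300, the pocket with which these coactivators bind acetylated histones. Each of the 5 conditions had 2 samples, described by the submitters as biological replicates, and the 2 DMSO samples served as the control of all 4 treatments. The comparisons with DMSO asked how each compound and concentration changed transcript levels, and they are not independent of each other because they share these controls.

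Genes named ZNF encode proteins with zinc fingers, small folds in which paired cysteines and histidines hold a zinc ion. In the common C2H2 type the fingers lie in a row and read DNA, and the largest class, the KRAB zinc finger proteins, carries a KRAB domain that recruits TRIM28 and with it SETDB1, HP1 proteins and histone deacetylases to repeats and other target sites. Many KRAB genes arose by tandem duplication and lie side by side, above all on chromosome 19. Other genes of the same naming series encode activators, partners of corepressors, or proteins that act on RNA and ribosomes rather than on DNA.

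The translated reading frames matched the name. Of 165 genes with a reading frame found in the GENCODE annotation of GRCh37, 162 had at least 1 match to the C2H2 finger pattern, with a median of 9 fingers and up to 36. The exceptions were ZNF259 (now called ZPR1), ZNF330 and ZNF839. A KRAB pattern was found in 78 genes and not in 87. Chromosome 19 held 58 of the 172 genes (33.7%), including 40 of those with a KRAB pattern. KRAB genes were expressed at lower levels than the others, with a median of 6.67 FPKM against 13.3.

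Expression was modest for most of the genes. The median of their mean levels was 8.51 FPKM, 100 genes lay between 5 and 10 FPKM, 40 between 10 and 20, and 32 at 20 or more. ZNF207, a BUB3-binding protein of kinetochores also known as BuGZ, had by far the highest mean at 181 FPKM, followed by ZNF655 at 66.5, ZNF593 at 64.1, ZNF664 at 51.2 and ZNF24 at 44.5. Together the 172 genes made up between 0.345% and 0.425% of the FPKM sum of a sample. The erythroid and stem cell markers expected in K562 were all at a mean of at least 5 FPKM (10 of 10). Among 7 markers of other blood cells, MS4A1 and CD14 were under 0.5 FPKM, while CD3D, LYZ and PTPRC were above 5 FPKM in every sample.

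One sample stood apart. In replicate 1 of 2 µM CBP30, values relative to DMSO fell with transcript length (Spearman's rho = −0.471 over 12135 genes), whereas in the other samples rho lay between −0.161 and 0.192. The zinc finger transcripts are long, with a median of 3551 bases against 3030 for other genes of at least 5 FPKM, and 111 of the 172 were lower in replicate 1 than in replicate 2 (rho between length and the difference of replicates = −0.707 over the 172 genes, given as a description). ZNF593, with a transcript of 638 bases, was at 98.3 FPKM in replicate 1 and at 57.5 in replicate 2, and ZNF117, with 9084 bases, was at 19.9 and 33.6. The effect of 2 µM CBP30 was therefore judged by replicate 2 alone, which leaves 1 sample whose spread is assumed to be that of the other groups. All tests below come from 1 limma fit of the remaining 9 samples on log2(FPKM + 1) over 12788 genes, and a gene is called where its p, adjusted by Benjamini and Hochberg's method over all of them, is under 0.05. Fold changes on this scale understate the change of genes with low values.

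**Figure D1:**
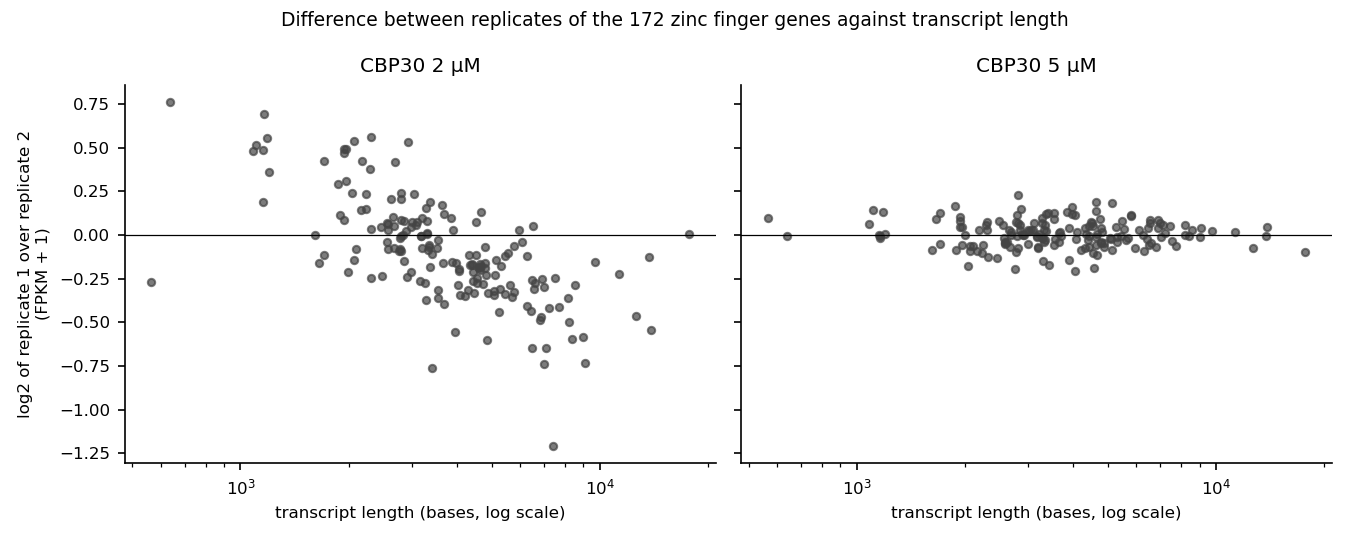
Log2 ratio of replicate 1 to replicate 2 (FPKM + 1) of the 172 zinc finger genes against transcript length in bases on a log axis, for 2 µM CBP30 (left) and 5 µM CBP30 (right), 1 point per gene. At 2 µM the long transcripts lie below 0 and the short ones above (rho = −0.707), and at 5 µM the points stay near 0 at all lengths.

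With 5 µM CBP30, 60 of the 172 genes were called lower than DMSO and 38 higher. Over all genes tested, 33.4% were lower and 29.5% higher, beside 34.9% and 22.1% of the zinc finger genes. Their median log2 fold change was −0.05, against −0.01 over all genes. The lower calls ranged from −0.99 to −0.14 and the higher calls from 0.14 to 0.72, and the size was over 0.5 in 17 of the 98 called genes. With all 10 samples in the fit, the number called lower dropped from 60 to 45 (26.2%) and the number called higher from 38 to 22 (12.8%). Over all genes the shares dropped from 33.4% to 25.4% lower and from 29.5% to 21.2% higher.

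With 2 µM CBP30, 40 genes were lower and 16 higher (23.3% and 9.30%), against 19.9% and 17.2% of all genes tested, and the median was −0.07 against 0.00. With 5 µM I-CBP112, 22 were lower and 7 higher (12.8% and 4.07%), against a background of 12.4% and 10.5%, with a median of −0.04 against 0.00. With 2 µM I-CBP112, 5 were lower and 4 higher, against 4.90% and 4.17% of all genes. In each of the first 3 comparisons the share called lower lay close to the background and the share called higher below it. The counts for I-CBP112 depend on the left-out sample: with all 10 samples, 2 lower and 1 higher were called at 5 µM, where the shares over all genes were 3.28% and 3.84%, and 0 at 2 µM (0.735% and 0.868% over all genes), where 32 of the 172 had an unadjusted p under 0.05 in the 9-sample fit.

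**Figure D2:**
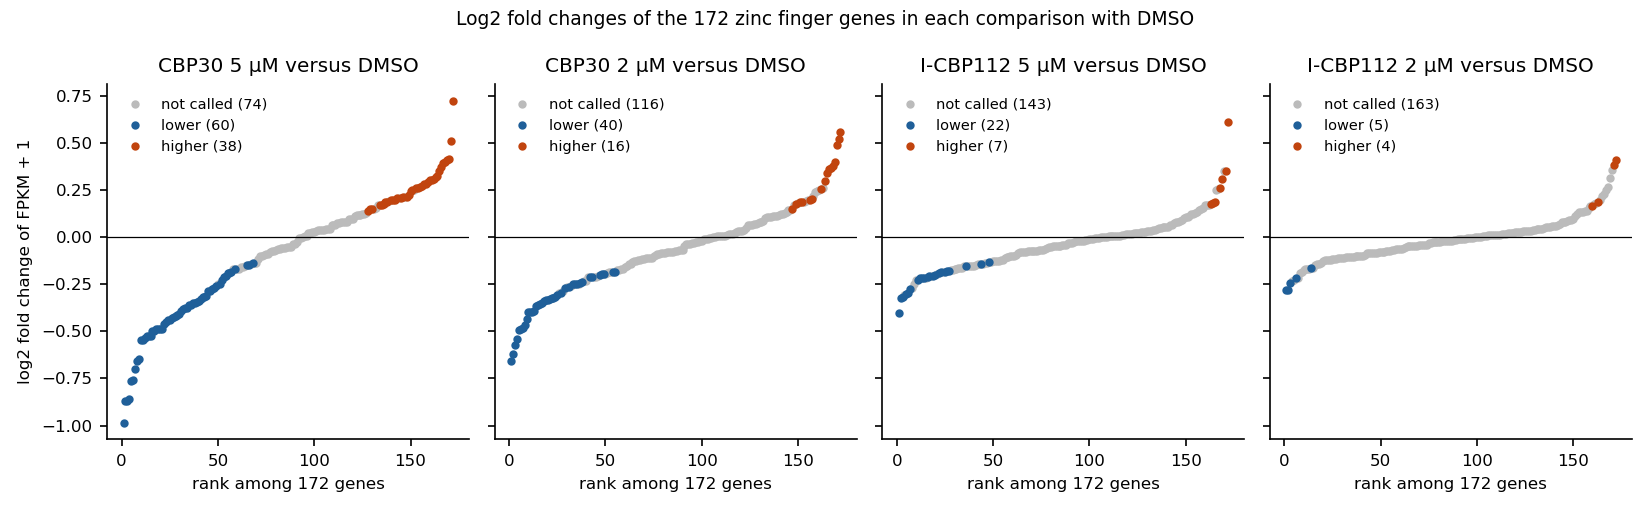
Log2 fold change of FPKM + 1 against DMSO for the 172 zinc finger genes, ranked from lowest to highest, in each of the 4 treatments; blue points were called lower, red points higher and grey points were not called. CBP30 at 5 µM spans −0.99 to 0.72, and I-CBP112 at 2 µM stays between −0.28 and 0.41.

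The sequences upstream of the 3 genes that fell most and of the 3 that rose most with 5 µM CBP30, among those with a RefSeq window, are shown because CREBBP and EP300 are known to act at promoters and enhancers. They are RefSeq windows on GRCh38.p14 from 250 bases before to 50 after the annotated start, with capitals marking CCGGAAG (the core read by ETS factors), TGACGT (the core of the cyclic AMP response element read by CREB) and CACGTG (the E-box), on either strand; overlapping matches form 1 run of capitals. ZNF581, ZNF259 and ZNF593 fell, and ZNF226, ZNF318 and ZNF311 rose.
ZNF581, chr19:55643399-55643698, + strand: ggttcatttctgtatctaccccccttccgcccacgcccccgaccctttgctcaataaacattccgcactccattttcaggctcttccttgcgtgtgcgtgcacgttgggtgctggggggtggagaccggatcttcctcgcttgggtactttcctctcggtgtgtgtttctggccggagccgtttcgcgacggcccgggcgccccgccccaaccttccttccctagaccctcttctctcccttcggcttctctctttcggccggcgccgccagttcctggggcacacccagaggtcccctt
ZNF259, chr11:116787974-116788273, - strand: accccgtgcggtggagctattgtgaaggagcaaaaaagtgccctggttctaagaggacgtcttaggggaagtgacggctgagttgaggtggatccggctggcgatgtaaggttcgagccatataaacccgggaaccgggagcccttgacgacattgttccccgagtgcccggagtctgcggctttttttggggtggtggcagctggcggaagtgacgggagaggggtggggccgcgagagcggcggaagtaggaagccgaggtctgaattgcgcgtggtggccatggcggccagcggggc
ZNF593, chr1:26169658-26169957, + strand: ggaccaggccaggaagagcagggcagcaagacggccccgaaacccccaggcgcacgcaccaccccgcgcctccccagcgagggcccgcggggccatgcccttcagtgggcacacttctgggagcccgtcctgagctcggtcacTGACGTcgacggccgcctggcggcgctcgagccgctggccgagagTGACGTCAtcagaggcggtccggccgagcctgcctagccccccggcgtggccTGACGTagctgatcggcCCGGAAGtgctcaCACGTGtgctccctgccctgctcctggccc
ZNF226, chr19:44164850-44165149, + strand: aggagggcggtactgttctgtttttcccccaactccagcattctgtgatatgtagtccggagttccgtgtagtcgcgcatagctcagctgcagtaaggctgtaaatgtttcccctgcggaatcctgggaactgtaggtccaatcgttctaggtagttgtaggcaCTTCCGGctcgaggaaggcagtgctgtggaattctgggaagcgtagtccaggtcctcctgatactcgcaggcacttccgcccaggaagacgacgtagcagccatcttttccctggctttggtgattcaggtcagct
ZNF318, chr6:43369598-43369897, - strand: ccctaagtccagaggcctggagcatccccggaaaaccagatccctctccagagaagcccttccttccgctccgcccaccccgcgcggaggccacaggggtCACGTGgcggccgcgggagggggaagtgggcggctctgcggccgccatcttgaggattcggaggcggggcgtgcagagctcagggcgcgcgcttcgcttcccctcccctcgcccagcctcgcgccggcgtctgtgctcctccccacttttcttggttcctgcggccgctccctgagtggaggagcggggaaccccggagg
ZNF311, chr6:29005563-29005862, - strand: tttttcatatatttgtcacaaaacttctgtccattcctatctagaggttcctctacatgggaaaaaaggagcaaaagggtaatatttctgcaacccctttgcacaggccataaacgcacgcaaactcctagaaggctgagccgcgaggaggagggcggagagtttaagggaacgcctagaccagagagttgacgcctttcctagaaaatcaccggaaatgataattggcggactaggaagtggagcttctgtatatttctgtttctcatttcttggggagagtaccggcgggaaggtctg

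The ETS core stood in 1 of the 3 windows of genes that fell, ZNF593, and in 1 of the 3 of genes that rose, ZNF226. A window was found for 148 of the 172 genes, and CCGGAAG was present in 65 of them (43.9%), in 25 of 52 genes called lower with 5 µM CBP30 (48.1%), 16 of 34 called higher (47.1%) and 24 of 62 not called (38.7%). It was present in 10.7% of the 27305 windows of all genes and in 22.8% of the windows found for other genes of at least 5 FPKM. Such a window was found for 6965 of 8825 other genes of that level (78.9%) and for 86.0% of the zinc finger genes. No test between these sets was run, so the shares are given as values alone. The GATA motif AGATAA was found in 1.35% of the zinc finger windows, 4.45% of those of the other expressed genes and 10.5% of all, and TATAAA in 4.73%, 5.03% and 11.95%. CCAAT was found in 47.3%, 38.1% and 35.7%, the core of the cyclic AMP response element in 14.9%, 13.4% and 8.32%, and the E-box in 6.08%, 11.2% and 7.43%. The median number of CG pairs was 24 in the zinc finger windows, 27 in those of the other expressed genes and 14 in all. The ETS core, the cyclic AMP response element core and the E-box contain a CG pair and the other motifs do not. The part of CG content in these shares was not tested, and a match of letters is not a binding site.

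Level was related to direction. Among the 32 zinc finger genes at 20 FPKM or more, 18 were lower with 5 µM CBP30 and 5 higher (56.3% and 15.6%), with a median of −0.29, and among 4430 other genes of that level 45.6% were lower and 26.0% higher, with a median of −0.09. Between 10 and 20 FPKM, 19 of 40 were lower and 9 higher (47.5% and 22.5%), against 34.9% and 32.6% of 2423 others. Between 5 and 10 FPKM, 23 of 100 were lower and 24 higher, against 28.6% and 33.9% of 1972 others. The share called higher was thus below that of other genes in all 3 classes, and the share called lower was above it only from 10 FPKM on. With 2 µM CBP30 the shares called higher were 8.00%, 12.5% and 9.38% from the lowest to the highest class, against 17.5%, 16.7% and 18.4% of other genes.

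**Figure D3:**
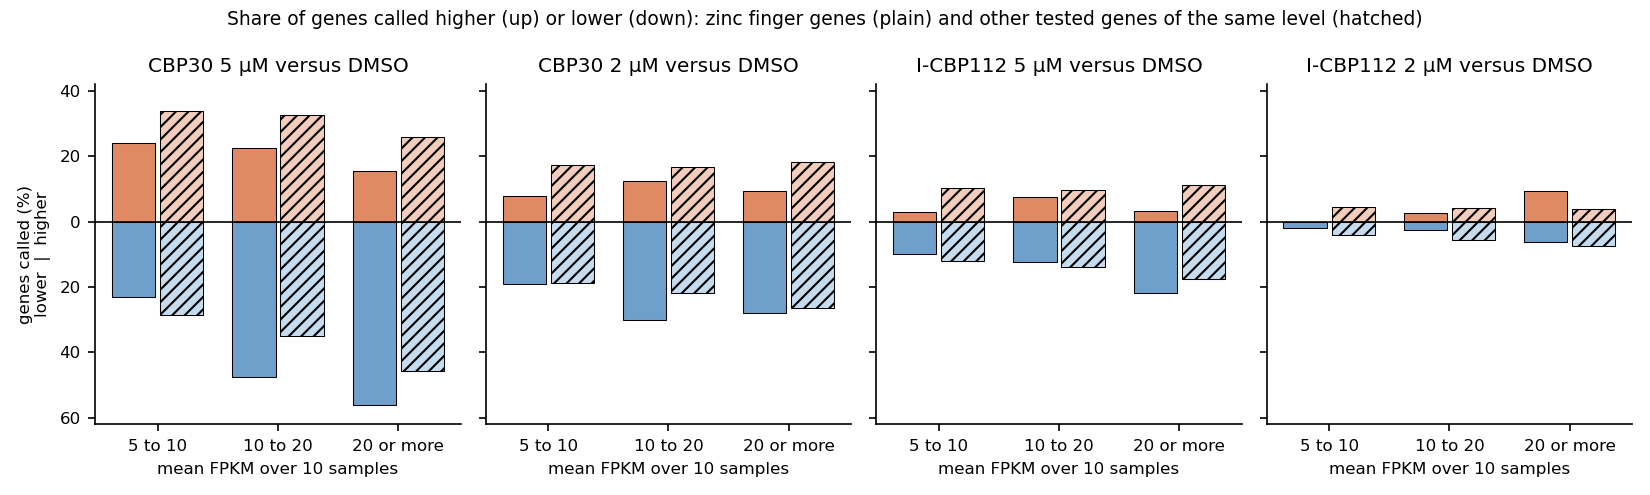
Percent of genes called higher (upward bars) and lower (downward bars) against DMSO in 3 classes of mean FPKM, for the zinc finger genes (plain bars; 100, 40 and 32 genes) and other tested genes of the same level (hatched bars; 1972, 2423 and 4430 genes). The plain upward bars are shorter than the hatched ones in every class with CBP30 and with 5 µM I-CBP112, and the tallest downward bar is that of the 32 genes at 20 FPKM or more with 5 µM CBP30 (56.3%).

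Transcript length moved with the same contrast. In both samples of 5 µM CBP30, values relative to DMSO rose weakly with length (rho = 0.192 and 0.191 over 12135 genes). Of the 86 zinc finger genes with the shorter transcripts, 41 were lower and 15 higher, and of the 86 with the longer ones 19 were lower and 23 higher. Once the trend with length was removed from each sample, the counts were 33 and 20 among the shorter and 25 and 17 among the longer. Among genes of 5 to 20 FPKM with transcripts of 2681 to 5129 bases, 27.0% of 74 zinc finger genes were lower and 24.3% higher, against 33.0% and 34.2% of 1583 others.

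ZNF581 fell most. Its level was 34.4 and 32.4 FPKM with DMSO and 16.4 and 16.3 with 5 µM CBP30. It was at 30.1 with 2 µM CBP30 (39.0 in the left-out replicate), at 31.0 and 33.7 with 2 µM I-CBP112, and at 32.4 and 27.5 with 5 µM I-CBP112. Only the 5 µM CBP30 samples stood clear of the others, at 49.0% of the DMSO mean (log2 fold change −0.99 ± 0.08 SE, adjusted p = 0.000147). ZNF581 (GRCh37 chr19:56146825-56156989) encodes a protein with 4 fingers and no KRAB pattern, and its annotated span overlaps that of ZNF580 on the same strand, so reads in the shared part could be assigned to either.

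ZNF259, now ZPR1, a zinc finger protein that binds the elongation factor eEF1A, was among the 3 genes that fell most. It was at 49.1 FPKM in each DMSO sample, at 27.1 and 25.8 with 5 µM CBP30 and at 36.99 with 2 µM (38.4 in the left-out replicate). With I-CBP112 it was at 43.1 and 47.1 at 2 µM and at 42.1 and 41.3 at 5 µM. Every treated sample was below both DMSO samples, and the level fell in order of CBP30 concentration, by 0.87 ± 0.05 on the log2 scale at 5 µM (adjusted p = 3.34e-05) and by 0.40 ± 0.06 at 2 µM (adjusted p = 0.00416). The test of 5 against 2 µM gave −0.47 ± 0.06 (adjusted p = 0.00353).

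ZNF593, the human counterpart of a yeast factor that escorts the large ribosomal subunit out of the nucleus, is short and highly expressed. Its level was 75.6 and 68.6 FPKM with DMSO and 38.8 and 39.0 with 5 µM CBP30 (−0.87 ± 0.06, adjusted p = 5.36e-05). The I-CBP112 samples lay between 62.3 and 68.2, below both DMSO samples but without a call at either concentration. At 2 µM CBP30 the call of −0.32 ± 0.07 (adjusted p = 0.0142) rests on 1 sample and turned to 0.06 when both replicates entered the fit.

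ZNF787 followed the same pattern, at 30.9 and 26.2 FPKM with DMSO, 22.4 with 2 µM CBP30 (31.9 in the left-out replicate, with which its change at 2 µM turned to 0.16), and 15.8 and 14.7 with 5 µM (−0.86 ± 0.08, adjusted p = 0.000203). Like ZNF581 and ZNF593 it has no KRAB pattern. ZNF239, with 9 fingers, was at 8.14 and 7.17 FPKM with DMSO and at 3.95 and 4.28 with 5 µM CBP30 (−0.76 ± 0.08, adjusted p = 0.000419).

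ZNF792 was the KRAB gene with the largest fall at 5 µM CBP30, and it was also called in the other 3 comparisons. Its level was 7.53 and 8.13 FPKM with DMSO, 4.17 and 4.24 with 5 µM CBP30, 4.73 with 2 µM CBP30 (3.97 in the left-out replicate), 5.47 and 5.87 with 5 µM I-CBP112, and 6.29 and 6.25 with 2 µM I-CBP112. No treated sample reached the lower DMSO sample. The log2 fold changes were −0.76 ± 0.05, −0.62 ± 0.06, −0.41 ± 0.05 and −0.28 ± 0.05 in that order of treatments, with adjusted p of 7.06e-05, 0.00118, 0.00482 and 0.0305. The last call was lost with all 10 samples in the fit (adjusted p = 0.175).

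**Figure D4:**
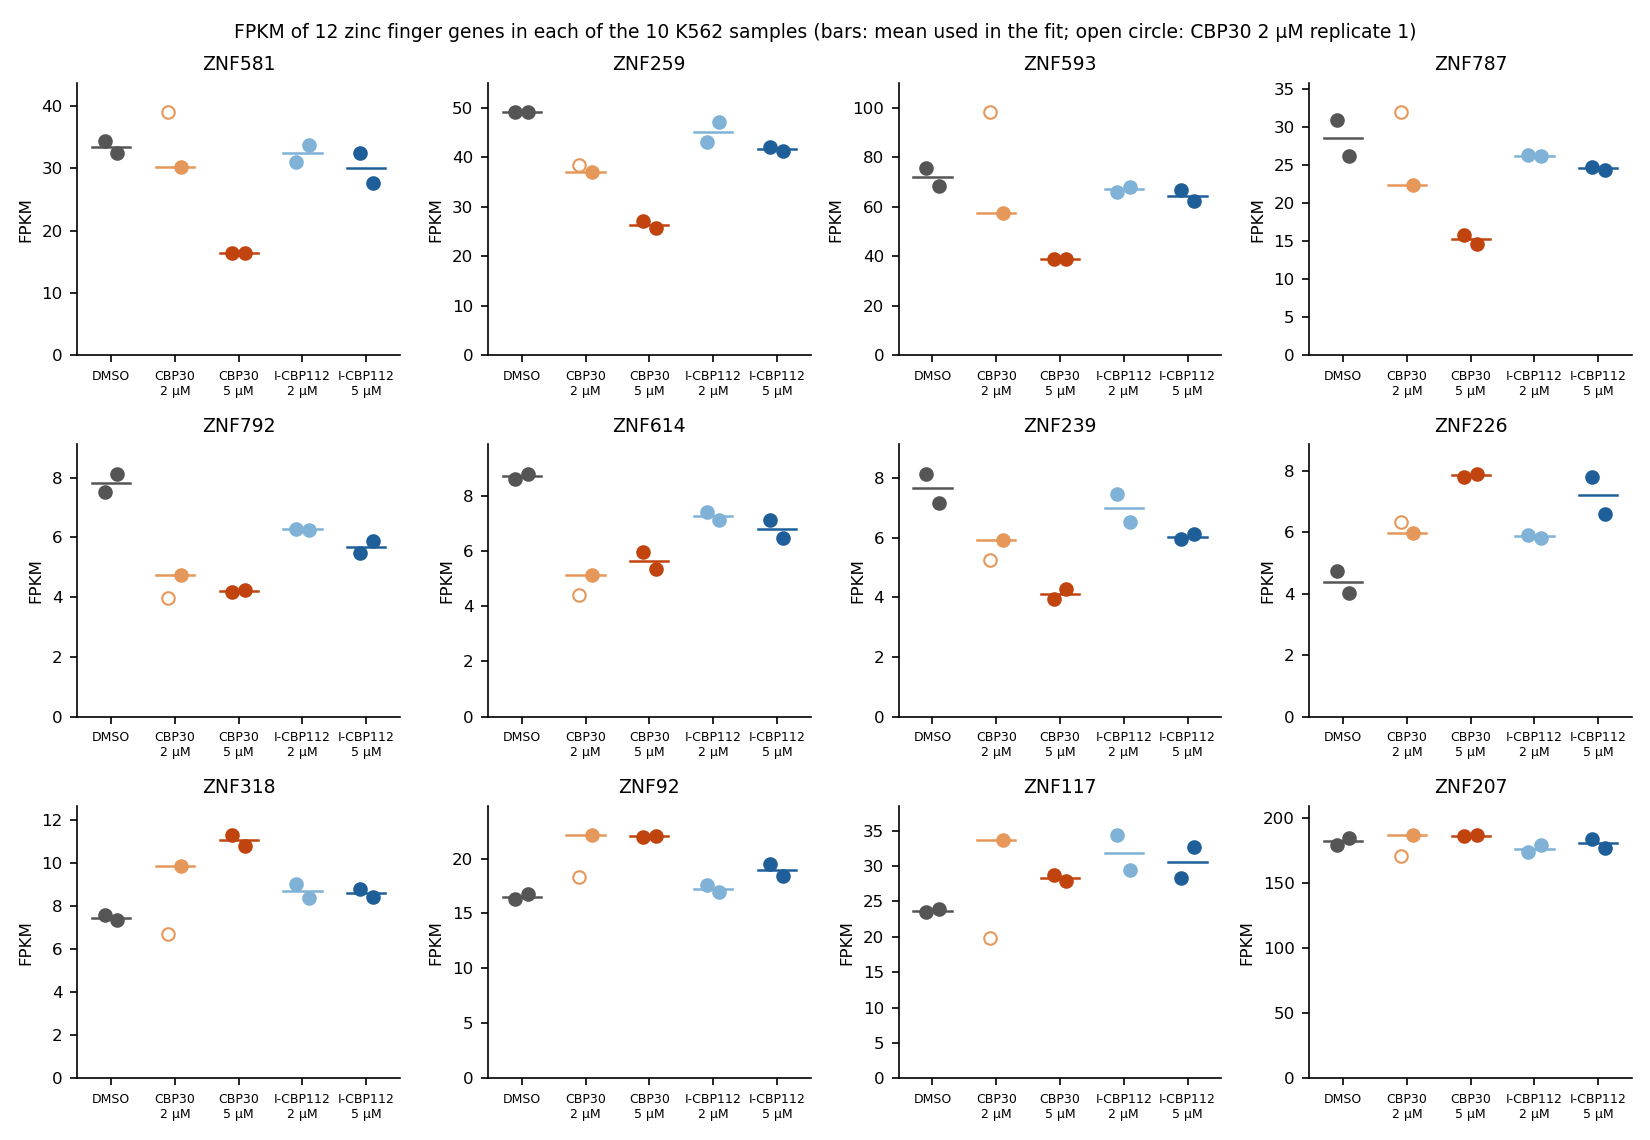
FPKM of 12 zinc finger genes in each of the 10 samples, 1 circle per sample, by condition; bars give the mean of the samples used in the fit and the open circle is replicate 1 of 2 µM CBP30. ZNF581 is at 49.0% of the DMSO mean with 5 µM CBP30, ZNF792 is below DMSO in every treated sample, ZNF226 is above it in every treated sample, and ZNF207 stays between 171 and 187 FPKM.

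Of the genes that rose, ZNF226 had the largest change. With a DMSO mean under 5 FPKM, it reached the threshold through its treated samples, and it was 1 of 6 such genes among the 38 called higher with 5 µM CBP30. In the same way 6 of the 60 called lower had a mean under 5 FPKM in the 5 µM CBP30 samples and reached it through the others. This KRAB gene with 17 fingers was at 4.73 and 4.02 FPKM with DMSO, 7.80 and 7.91 with 5 µM CBP30, 5.97 with 2 µM CBP30 (6.33 in the left-out replicate), 7.80 and 6.61 with 5 µM I-CBP112, and 5.91 and 5.82 with 2 µM I-CBP112. All treated samples lay above both DMSO samples. The log2 fold change was 0.72 ± 0.09 with 5 µM CBP30 (adjusted p = 0.000732) and 0.38 ± 0.11 at the lower concentration (adjusted p = 0.0397). I-CBP112 raised the level by 0.61 ± 0.09 at 5 µM (adjusted p = 0.00696), and its 2 µM samples were not called (0.36 ± 0.09, adjusted p = 0.0641).

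ZNF318 was second. It was at 7.58 and 7.37 FPKM with DMSO, at 11.3 and 10.8 with 5 µM CBP30 (0.51 ± 0.05, adjusted p = 0.000287), at 9.87 with 2 µM CBP30, and between 8.37 and 9.05 in the 4 samples of I-CBP112. Its transcript has 8210 bases, and the left-out replicate of 2 µM CBP30 was below DMSO at 6.71, so that the sign at 2 µM depends on the replicate used. The other large rises with 5 µM CBP30 were those of ZNF311 (0.41 ± 0.08, adjusted p = 0.00498), ZNF559 (0.41 ± 0.05, adjusted p = 0.000867) and ZNF322 (0.40 ± 0.04, adjusted p = 0.000262). ZNF559 was the gene nearest the threshold, and its mean of 5.02 FPKM includes the treated samples in which it was higher.

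Of 8 genes listed under RNA, translation and ribosomes, 5 were lower with 5 µM CBP30 and 1 higher (62.5% and 12.5%). The shares over all genes tested were 33.4% and 29.5%. The median of the 8 was −0.47, against −0.01 over all genes. The 5 lower genes were all above 20 FPKM, where 56.3% of the zinc finger genes and 45.6% of other genes were lower. Besides ZNF593, ZNF330, a nucleolar protein, fell from 35.7 and 36.8 FPKM to 23.7 and 25.3 (−0.55 ± 0.05). ZNF598, the ubiquitin ligase that marks collided ribosomes, fell from 32.7 and 29.6 to 22.1 and 21.7 (−0.49 ± 0.05), ZNF706 from 42.9 and 44.4 to 30.0 and 31.6 (−0.49 ± 0.04), and ZNF622, a cytoplasmic maturation factor of the large ribosomal subunit, from 35.9 and 32.6 to 24.3 and 25.2 (−0.45 ± 0.06). In each of these 5 genes both 5 µM CBP30 samples were below both DMSO samples. This is no separate support, because the genes were named for being called lower. The share of all genes tested without such overlap was not counted. ZNF326, which couples elongation to splicing, was higher (0.18 ± 0.04), and ZNF346, which binds double-stranded RNA, and ZNF638 were not called (0.07 and 0.04). With 5 µM I-CBP112, 3 of the 8 were lower and 0 higher, against 12.4% and 10.5% of all genes tested. With all 10 samples in the fit, 2 of the 172 genes were lower at that concentration, ZNF792 and ZNF777, which are not among the 8. The list of 8 was assembled with results of these data known, and no action on RNA or ribosomes is claimed for ZNF706 or ZNF330.

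Of 10 activators and general DNA-binding factors, where 33.4% lower and 29.5% higher was the share over all genes tested, 2 were lower with 5 µM CBP30 (ZNF131, −0.33, and ZNF384, −0.28) and 4 higher (ZNF76, 0.28, ZNF24, 0.26, ZNF687, 0.24, and ZNF592, 0.21). ZNF143, an activator of small nuclear RNA genes, was at 7.58 and 8.37 FPKM with DMSO and 7.80 and 7.79 with 5 µM CBP30, and was called in none of the 4 comparisons. ZNF410, whose known main target is CHD4, was not called with 5 µM CBP30 (0.08), while CHD4 was higher (0.39). ZNF281 and ZNF711 were at 0.03 and 0.17 and not called.

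Of the partners of corepressors ZNF217, ZNF521 and ZNF644, only ZNF217 was called between the concentrations of CBP30. Over all genes tested, 18.2% were lower and 15.3% higher with 5 µM than with 2 µM CBP30. The call of ZNF217 rests on replicate 2 alone at 2 µM. ZNF644, which binds the methyltransferases EHMT1 and EHMT2, was higher with 5 µM (0.26), ZNF521, a factor of blood progenitors, was lower with 2 µM (−0.20), and ZNF217, which works with CtBP and CoREST, was called against DMSO in neither (0.12 and −0.18), while its 5 µM samples were above the 2 µM sample (0.30, adjusted p = 0.0125). The difference between 5 and 2 µM was 0.14 for ZNF521 (adjusted p = 0.1005) and 0.08 for ZNF644 (adjusted p = 0.435). A list drawn up for mitosis, SUMO and genome maintenance held 5 members, of which 2 were lower and 2 higher with 5 µM CBP30. The shares over all genes tested were 33.4% and 29.5%. ZNF318 and the SUMO ligase ZNF451 (0.20) were higher, and ZNF668 (−0.38) and ZNF830 (−0.21) lower. No role of ZNF318 in these processes is claimed, and the list was written with results of these data known. ZNF207 was at 179 and 185 FPKM with DMSO and 186 and 187 with 5 µM CBP30, a difference of 0.04 ± 0.03 that did not pass the test.

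The shares of KRAB genes called with 5 µM CBP30 lay near those of all genes tested (33.4% lower and 29.5% higher). With 5 µM CBP30, 24 of 78 KRAB genes were lower and 21 higher (30.8% and 26.9%), and 34 of 87 genes without the pattern were lower and 16 higher (39.1% and 18.4%), with medians of −0.06 in both. With 2 µM CBP30, judged by 1 sample, the median was −0.09 for KRAB genes and −0.05 for genes without the pattern, against 0.00 over all genes tested. Genes with 12 or more fingers had 11 lower and 14 higher of 44 with 5 µM CBP30 (25% and 31.8%), and those with 0 to 3 fingers 12 lower and 4 higher of 27 (44.4% and 14.8%). These classes overlap with level, since KRAB genes were expressed at lower levels, and the part of level in the difference was not tested.

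Of 22 genes of the corepressor machinery that KRAB proteins recruit, 7 were higher with 5 µM CBP30 and 6 lower (31.8% and 27.3%), which is near the 29.5% and 33.4% of all genes tested. TRIM28 itself was not called in any comparison with DMSO (0.04 with 5 µM CBP30), the HP1 genes CBX5 (0.68) and CBX1 (0.36) and HDAC1 (0.49), UHRF1 (0.54), CHD4 (0.39), FAM208A (0.34) and MPHOSPH8 (0.16) were higher, and SETDB1 (−0.28), SUV39H1 (−0.41), SUV39H2 (−0.17), EHMT2 (−0.30), CHD3 (−0.20) and ZNF274 (−0.50) were lower. ZNF274, a KRAB zinc finger protein that brings SETDB1 to the 3′ ends of other zinc finger genes, was at 14.4 and 13.2 FPKM with DMSO, 9.72 and 9.22 with 5 µM CBP30 and 9.51 with 2 µM CBP30 (11.1 in the left-out replicate). The I-CBP112 samples of ZNF274 lay between 11.97 and 12.3, below DMSO without a call.

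Some neighbouring genes were called in the same direction. With members less than 1000000 bases apart joined, 84 of the 172 fell into 12 groups of at least 5. The groups named next were chosen after their values were seen and carry no test. Over all genes tested, 33.4% were lower and 29.5% higher with 5 µM CBP30. Among 542 other genes of chromosome 19 at 5 FPKM or more, 50.7% were lower and 20.8% higher. On chromosome 19 between 56088140 and 56672262 (GRCh37) lie ZNF579, ZNF524, ZNF580, ZNF581, ZNF787 and ZNF444, none with a KRAB pattern, and 5 of these 6 were lower with 5 µM CBP30 and 0 higher, with a median of −0.37. ZNF580 was the exception, at 37.7 and 35.3 FPKM with DMSO and 38.1 and 38.0 with 5 µM CBP30. Their transcripts have 1156 to 2922 bases. With the trend with length removed from each sample, ZNF581 (−0.83), ZNF787 (−0.75) and ZNF579 (−0.27) were called lower, ZNF444 (−0.25) and ZNF524 (−0.22) were not called, and ZNF580 was called higher (0.22).

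On chromosome 6 between 26634611 and 28973093, 5 of 7 genes were higher with 5 µM CBP30 and 1 lower, with a median of 0.31. Over all genes tested, 29.5% were higher and 33.4% lower with that treatment. ZNF322 rose from 13.8 and 14.3 FPKM to 18.9 and 18.7, ZNF184 from 6.78 and 6.93 to 8.88 and 9.17, and ZNF311 from 4.84 and 5.59 to 7.45 and 7.03. ZNF192 (now ZKSCAN8) and ZNF187 (now ZSCAN26) were also higher, ZNF193 (now ZSCAN9) was not called (−0.16), and ZNF391 was lower (−0.35). ZNF192 was at 22.1 and 22.7 FPKM under DMSO and at 28.4 and 27.4 under 5 µM CBP30 (0.31 ± 0.06). The 1 sample of 2 µM in the fit was at 17.7 (−0.32 ± 0.08), and the left-out replicate was at 7.08. The opposite directions thus rest on 1 sample of the group whose replicates differed with transcript length.

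In the group of 5 genes on chromosome 19 between 58046625 and 58943103, 4 had a KRAB pattern and ZNF274 had no reading frame found. Their median change with CBP30 was below 0 at both concentrations, at −0.40 with the 1 sample of 2 µM and −0.23 with 5 µM. With 5 µM, 3 of 5 were lower and 0 higher, against 33.4% and 29.5% of all genes tested. The falls were led by ZNF274 and ZNF544 (−0.40 with 2 µM and −0.41 with 5 µM). In contrast, of the 5 genes between 21203440 and 21950381 on the same chromosome, ZNF430 (0.37), ZNF714 (0.30) and ZNF429 (0.28) were higher with 5 µM CBP30 and none was called with any other treatment. Members of chromosome 19 as a whole had 36.2% lower and 24.1% higher with 5 µM CBP30, against 50.7% and 20.8% of 542 other genes of that chromosome at 5 FPKM or more. Neighbours were joined by distance alone, and the similarity of their sequences was not measured. Where neighbours are paralogs with similar sequence, reads of 50 bases may not always be assigned to the right copy.

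With 2 µM CBP30 other genes led the list. ZNF614, a KRAB gene with 10 fingers, was at 8.60 and 8.79 FPKM with DMSO, 5.14 with 2 µM CBP30 (4.41 in the left-out replicate) and 5.96 and 5.33 with 5 µM, and its fall was the largest at 2 µM (−0.66 ± 0.08, adjusted p = 0.00201). ZNF792 (−0.62), ZNF550 (−0.57), ZNF789 (−0.54) and ZNF274 (−0.49) followed. ZNF550 was at 6.67 and 5.90 FPKM with DMSO and at 3.89 with 2 µM CBP30 (3.04 in the left-out replicate), and was not called with 5 µM (−0.17, adjusted p = 0.225). The direct comparison of ZNF550 between the concentrations was not called either (0.41 ± 0.13, adjusted p = 0.0633). ZNF789 overlaps ZNF394 on the opposite strand, and whether counting used the strand is not given in the sources used here.

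The largest rises with 2 µM CBP30 were those of ZNF771, ZNF747, ZNF117, ZNF92 and ZNF226. ZNF771, ZNF747 and ZNF226 had DMSO means under 5 FPKM and reached the threshold through treated samples. ZNF117 was below both DMSO samples in the left-out replicate (19.9 FPKM), and with that replicate in place of the other its change turned to −0.24. ZNF771 was at 4.89 and 3.73 FPKM with DMSO, 6.78 with 2 µM (10.3 in the left-out replicate) and 4.41 and 4.64 with 5 µM, a rise of 0.56 ± 0.13 at 2 µM (adjusted p = 0.0223) that was not called at 5 µM (0.06), and the concentrations differed (−0.49 ± 0.13, adjusted p = 0.0353). ZNF747 was at 5.03 and 4.68 with DMSO, 7.38 with 2 µM (7.88 in the left-out replicate) and 6.27 and 6.35 with 5 µM. ZNF771 and ZNF747 lie in a group of 10 on chromosome 16 between 30418735 and 31928678. The median change of this group was 0.19 with 2 µM CBP30, which rests on 1 sample, and 0.08 with 5 µM. The group was named after its values were seen and carries no test. ZNF92 was even between the concentrations, at 16.3 and 16.7 with DMSO, 22.1 with 2 µM (18.3 in the left-out replicate) and 22.0 and 22.1 with 5 µM.

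With all 172 genes, 5 µM CBP30 was lower than 2 µM in 27 and higher in 20 (15.7% and 11.6%), against 18.2% and 15.3% of all genes tested. The balance depends on the sample used at 2 µM, with 31 lower and 31 higher with all 10 samples, and 45 lower and 68 higher with replicate 1 in place of replicate 2. The lowest value was that of ZNF581 (−0.84) and the highest that of ZNF192 (0.63).

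I-CBP112 produced smaller changes. At 5 µM the falls were led by ZNF792 (−0.41), ZNF777 (−0.33 ± 0.06, adjusted p = 0.0123), ZNF614 (−0.32 ± 0.06, adjusted p = 0.0195), ZNF239 (−0.30) and ZNF480 (−0.30 ± 0.05, adjusted p = 0.0135). ZNF480, a KRAB gene, was at 7.51 and 8.04 FPKM with DMSO, 6.05 and 6.14 with 5 µM I-CBP112, 6.41 and 6.02 with 2 µM I-CBP112, 6.14 and 5.71 with 5 µM CBP30 and 5.34 with 2 µM CBP30. All treated samples of ZNF480 were below both DMSO samples. The rises were led by ZNF226 (0.61), ZNF117 (0.35 ± 0.09, adjusted p = 0.0396), ZNF558 (0.31 ± 0.04, adjusted p = 0.00529), ZNF559 (0.26) and ZNF92 (0.19). ZNF226, and ZNF559 at a mean of 5.02 FPKM, met the threshold with these higher samples in their means. ZNF226, ZNF792 and ZNF777 kept their calls at 5 µM with all 10 samples in the fit, the only 3 of the 172 to be called there.

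At 2 µM I-CBP112 the 9 called genes were ZNF480 (−0.28), ZNF792 (−0.28), ZNF639 (−0.24), ZNF706 (−0.22) and ZNF131 (−0.17), which were lower, and ZNF117 (0.41), ZNF718 (0.38), ZNF326 (0.19) and ZNF76 (0.17), which were higher. ZNF117, which shares its locus with the endogenous retroviral gene ERV3-1, was at 23.4 and 23.9 FPKM with DMSO, 34.4 and 29.4 with 2 µM I-CBP112, 28.3 and 32.7 with 5 µM I-CBP112 and 33.6 with 2 µM CBP30 (19.9 in the left-out replicate), and was not called with 5 µM CBP30 (28.8 and 27.9). ZNF718 was at 33.9 and 32.0 with DMSO and 41.7 and 44.7 with 2 µM I-CBP112, and was not called in the other comparisons. Each of these 9 calls was lost in the fit of all 10 samples.

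The compounds were compared directly at 5 µM, the 1 matched concentration at which each has 2 samples in the fit. With CBP30, 41 of the 172 genes were lower than with I-CBP112 and 33 higher (23.8% and 19.2%), against 28.2% and 24.0% of all genes tested. ZNF581 (−0.83 ± 0.08, adjusted p = 0.000552), ZNF593 (−0.72 ± 0.06, adjusted p = 0.000257), ZNF787 (−0.65 ± 0.08, adjusted p = 0.00106) and ZNF259 (−0.64 ± 0.05, adjusted p = 0.000238) had the largest differences, all lower with CBP30. The genes higher with CBP30 included ZNF192 (0.46 ± 0.06), ZNF430 (0.36), ZNF714 (0.34), ZNF318 (0.33) and ZNF322 (0.33). ZNF226, ZNF558 and ZNF480 did not pass the test, with 95% intervals of the difference of −0.10 to 0.33, −0.15 to 0.05 and −0.17 to 0.10 on the log2 scale. With all 10 samples in the fit, the number lower with CBP30 dropped from 41 to 31 (18.0%) and the number higher from 33 to 9 (5.23%). Over all genes the shares dropped from 28.2% to 17.9% lower and from 24.0% to 13.6% higher.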

How the data were processed

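The authors made strand-specific libraries from polyadenylated RNA and sequenced them as single reads of 50 bases. They processed the reads on hg19 (GRCh37), and the submitters' processing notes name TopHat2 2.0.10, Bowtie 1.0.0, SAMtools 0.1.19, Cufflinks 2.2.1 and Cuffnorm. The deposited table holds FPKM per gene and sample, with no pooling of replicates. FPKM hold no read counts. With genes of long transcripts detected in 2 to 4 libraries taken as 1 read each (616 genes), relative depth ranged from 0.747 to 1.11 times the mean, and no counting error was derived.

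Values were tested with limma 3.58.1 in R 4.3.3 (lmFit, eBayes with trend) on log2(FPKM + 1) in 12788 genes whose mean reached 0.5 FPKM, with all 5 groups and 9 samples in 1 fit (4 residual degrees of freedom, prior 2.01). Replicate 1 of 2 µM CBP30 was left out of it. P-values were adjusted by Benjamini-Hochberg over all genes tested. The p-values rest on the spread between the 2 cultures of each condition with 2 samples in the fit, moderated by the prior. The 2 µM CBP30 group had 1 sample in it, so no spread of its own entered. Positions, reference transcript length, C2H2 and KRAB patterns came from GENCODE on GRCh37, matched by symbol for 161 of the 172 genes and by an older symbol for 11. For 7 genes no full reading frame was found. Promoter letters came from RefSeq. Named genes are the 5 largest called falls and rises of each comparison with DMSO whose treated samples lay beyond both DMSO samples, the members of the role lists, the 5 highest means and those at the threshold, and other genes named were chosen after their values were seen. The members, lists and rules were chosen with earlier results of these data known. The alternatives changed the filter (none, or 5 FPKM), the pseudocount (0.1), the scaling (median centring or quantile normalization) and the fit (without trend, with the compared groups alone, or with a replicate block), and also covered other choices of the 2 µM CBP30 sample, removal of the length trend (lowess over log2 length, span 0.3) and leaving out each sample.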

Additional observations from a re-analysis of the deposited data

How the results depend on the processing

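The number of samples per condition, 2, limits every call, and 2 µM CBP30 rests on 1. The number of the 172 genes lower and higher is given in that order. Placing replicate 1 of 2 µM CBP30 in the fit in place of replicate 2 gave 82 and 27 at 2 µM CBP30 and 45 and 68 for 5 against 2 µM. With all 10 samples, the counts were 45 and 22 with 5 µM CBP30 and 31 and 31 for 5 against 2 µM. They were 31 and 9 for CBP30 against I-CBP112 at 5 µM, and I-CBP112 gave 2 and 1 at 5 µM and 0 and 0 at 2 µM. All 10 samples with the length trend removed, an alternative added after the data were seen, gave 13 higher for CBP30 against I-CBP112, 9 and 3 with 5 µM I-CBP112 and 1 and 0 with 2 µM. Fitting only the groups compared, which leaves fewer residual degrees of freedom, gave 0 and 0 at 2 µM CBP30, 10 and 4 for 5 against 2 µM, 7 and 1 with 5 µM I-CBP112 and 0 and 0 with 2 µM. Without the filter, 13 were lower with 5 µM I-CBP112, and 2 lower and 1 higher with 2 µM. At 2 µM I-CBP112, eBayes without trend gave 3 and 1, and quantile normalization 2 lower. The causes were not tested.

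Same-numbered samples did not deviate together (correlations of −0.068 to 0.094). With the replicate block, 13 were higher for 5 against 2 µM CBP30, and 1 was lower and 0 higher with 2 µM I-CBP112. The paired fit kept 93 of the 98 calls with 5 µM CBP30, 40 of 56 with 2 µM CBP30 and 21 of 29 with 5 µM I-CBP112.

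Leaving out 1 sample at a time gave 48 to 52 lower and 24 to 31 higher with 5 µM CBP30, 25 to 27 and 9 to 10 with 2 µM CBP30, 2 to 7 and 3 to 4 with 5 µM I-CBP112, 0 to 1 and 0 to 1 with 2 µM I-CBP112, 32 to 35 and 15 to 21 for CBP30 against I-CBP112 at 5 µM, and 12 to 15 and 7 to 9 for 5 against 2 µM CBP30.

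Of 140 calls of named genes, signs changed only at 2 µM CBP30. ZNF593 went to 0.0616 with all 10 samples. With replicate 1 in place of replicate 2, ZNF593 went to 0.44, ZNF787 to 0.16, ZNF117 to −0.24, ZNF318 to −0.14, ZNF322 to −0.0293 and ZNF558 to −0.000427.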

Other observations

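Some ZNF genes below the threshold changed more with 5 µM CBP30 than any above it. Of 215 ZNF genes tested with a mean under 5 FPKM, 45 were lower and 47 higher with 5 µM CBP30 (20.9% and 21.9%, against 33.4% and 29.5% of all genes tested), and the genes named here were chosen after their values were seen. ZNF485, just under the threshold, was lower with all 4 treatments, by 1.10 on the log2 scale with 5 µM CBP30 (adjusted p = 2.40e-05 by limma) and by 0.80 with 2 µM CBP30. ZNF608 was higher with all 4, by 1.25 with 5 µM CBP30, 0.72 with 2 µM CBP30, 0.46 with 5 µM I-CBP112 and 0.38 with 2 µM I-CBP112. ZNF445, a KRAB protein known for guarding imprinted loci, was higher by 0.66 with 5 µM CBP30.

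Other zinc finger families of at least 5 FPKM were also measured. Of 24 genes matched by a symbol of ZBTB and a number, 7 were lower and 7 higher with 5 µM CBP30 (29.2% each), near the shares of all genes tested. ZBTB genes carry a BTB domain before their fingers. The match also took in ZBTB8OS, which is named for its place opposite ZBTB8 and is not of this family. It is among the 7 lower (−0.18). Of 9 genes matched by ZFP and a number, 1 was lower and 4 higher with 5 µM CBP30 (11.1% and 44.4%). Of 6 ZSCAN and ZKSCAN genes, 0 were lower and 2 higher (33.3%). The shares over all genes tested were 33.4% and 29.5%. The 2 ZFP genes named next were chosen after their values were seen. ZFP36L2, an RNA-binding protein that promotes decay of AU-rich messages, was lower with 5 µM CBP30 (−0.74), 2 µM CBP30 (−0.61), 5 µM I-CBP112 (−0.40) and 2 µM I-CBP112 (−0.34). ZFP42, a marker of pluripotent cells also known as REX1, was higher with I-CBP112 (0.78 at 5 µM and 0.58 at 2 µM) and not called with CBP30 (−0.05 at 5 µM and 0.20 at 2 µM), and at 5 µM the compounds differed by −0.82.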
